A study of Rattus norvegicus with 24 samples.

Results

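Genes of the synaptic release machinery were followed across single rat dorsal root ganglion (DRG) neurons, by neuron type, by the level of the injury gene Sprr1a and by surgical group. The set was chosen by symbol: synaptotagmins (Syt), syntaxins (Stx), VAMPs (Vamp), Sv2, Rab3, complexins (Cplx), genes named Snap with a number, and synapsins (Syn), kept where the mean over all cells that passed quality control was at least 1 CPM (a gene's count scaled to 1000000 UMIs of the cell). Of 55 genes with such names, 50 met the limit, out of 32881 genes shared by all files and 12892 genes at or above that level. They comprised 14 syntaxins, 14 of 17 synaptotagmins, 7 VAMPs, 4 Snap genes, 4 Rab3 genes, 3 synapsins, 2 Sv2 genes and 2 of 4 complexins. Just inside the limit were Vamp5 at 1.15 CPM and Syt7 at 1.68 CPM, and just outside it was Syt16 at 0.551 CPM.

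In spared nerve crush (SNC) the tibial and common peroneal nerves of male Sprague-Dawley (SD) rats were crushed and the sural nerve was spared, whereas sham rats had the nerve exposed without injury. All labelled rats, sham included, had dyes injected into the nerve branches 2 weeks before surgery. Dye-labelled L4 and L5 neurons were picked by mouth pipette into 17 libraries of 16 DRG samples: 4 sham samples, 4 at 1 day, 3 at 3 days and 5 at 7 days after SNC. A further 7 libraries, labelled sham at 0, 1, 3 or 7 days, are called added sham here. After quality control 930 labelled and 503 added neurons remained, with medians of 239286 and 340145 UMIs (unique molecular identifiers, each counting 1 copy of an RNA); the samples held 4002503 to 40732975 UMIs. Crushed and uncrushed neurons of a sample were pooled, since cell names do not carry the dye. By the labels, their mix was lopsided in the 7 day replicates 5 and 6, in opposite directions, and less so in the 1 day replicate 4. It was near even in the other labelled samples. The labels do not tie each sample to its own rat, so p-values measure the spread between these samples. Sham replicate 1, with 24 cells, stood apart: the summed level of 8 markers of glia and other non-neuronal cells was 1509 CPM there and 132 to 1024 CPM in the other 15 samples.

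Release of a vesicle takes place when a SNARE protein on the vesicle, such as Vamp1 or Vamp2, zips together with Stx1a and Snap25 of the plasma membrane. Synaptotagmins such as Syt1 and Syt2 sense the calcium that triggers fusion, complexins bind the assembled SNAREs, synapsins tether vesicles, Sv2 proteins sit in the vesicle membrane and Rab3 proteins are small GTPases that recruit vesicles. Many other syntaxins and VAMPs serve the Golgi, endosomes or lysosomes, and Snap91 (AP180) is a clathrin adaptor of vesicle recycling and not a SNARE, although it shares the name. Sensory neurons make these proteins in the ganglion and ship them along both branches of the axon. Counts were tags at the end of each RNA and were not divided by gene length, so each level below is compared within a gene and not between genes.

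Neuron types were read from clusters made separately in the labelled cells (10 clusters) and the added cells (7 clusters), named by fixed markers. Labelled clusters 3 and 4, with 8 and 7 of 11 neurofilament (NF) markers high, were called NF-like. Nefh, Nefm, Nefl and Ntrk3 were high in both. Pvalb, Shox2, Ntng1 and Spp1 were high in cluster 3 and not 4, and S100a16, Kcnv1 and Nmb in cluster 4 and not 3. Cluster 4 was also high in Kit and Trpm8. Cluster 3 was also high in Pcp4, Htr1f and 3 of 5 markers of c_pLTMR2 neurons (putative low-threshold C mechanoreceptors), namely Zfp521, Tafa4 and Slc17a8. NF-like is thus a class with mixed markers and not 1 type. The added NF-like cluster 1 had the same 8 markers high as cluster 3, and Zfp521 and Slc17a8 were high there too. The other labelled clusters were PEP1-, PEP2- and PEP3-like (peptidergic), NP-like (non-peptidergic), SST-like (clusters 5 and 7) and cold-like (cluster 9, Trpm8 neurons). Markers high were 7 of 12 for PEP1, 9 of 11 for PEP2, 15 of 15 for PEP3, 6 of 7 for NP and 3 of 3 for cold. Tac1, by which the paper defines PEP1 together with Gal, was high in the PEP3-like cluster and not in the PEP1-like cluster. A cluster 8 stayed unnamed, with 6 of 6 glial markers high and, like cluster 9, 3 of 3 cold markers high. Of 6 SST markers, 3 were high in cluster 5, without Sst itself, and 4 in cluster 7, with Sst. Cluster 7 also had 9 of 15 PEP3 markers high, Trpa1, Trpv1 and Scn10a among them. As 11 members were among the 2000 genes used for clustering, levels by type are a description with no test; with those members taken out, cells fell into nearly the same clusters (adjusted Rand index 0.985 and 1).

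NF-like neurons differed from the remaining neurons in single release genes, with the vesicle SNARE Vamp1, the complexins and Syt2 higher and Syt1 and Syt5 lower. In the 15 labelled samples with at least 3 NF-like cells, sham replicate 1 having 1, 8 members were above the remaining cells of the sample in 15 of 15 samples, among them Cplx1, Cplx2, Syt3, Syt12, Snap91, Syn1 and Rab3a. Another 8 were below in every sample, namely Stx2, Syt5, Vamp3, Vamp4, Vamp8, Syt1, Syt4 and Stx4. Each count is 16% of the members, beside 11.4% of all genes at or above 1 CPM that were above in all samples and 5.43% that were below. The share above was thus not far from that of all genes. NF-like cells were also deeper, with medians of 526885 and 441320 UMIs in clusters 3 and 4, beside 239286 over labelled cells. With cells thinned to 20000 UMIs, 3 members were above and 2 below in all samples.

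Vamp1, the vesicle SNARE, was at 270 ± 83.1 CPM (SD, n = 15) in NF-like neurons, with a lowest, median and highest sample of 122, 265 and 427 CPM, against 113.6 CPM in the remaining cells, and was above in 14 samples. Syt2, a fast calcium sensor, was at 336 ± 110 CPM against 108.3 CPM, also above in 14 samples, and ranged from 4.78 to 481 CPM. Both ran higher in NF-like neurons, with 1 sample against the direction for each. Complexins went with them, with Cplx1 at 520 ± 50.4 against 406 CPM and Cplx2 at 171 ± 63.0 against 63.4 CPM. The ratio was highest for Syt12 (27.2 ± 13.6 against 1.70 CPM) and Syt3 (46.1 ± 31.3 against 3.36 CPM), of which Syt3 marked cluster 3 (78.1 ± 50.5 CPM, n = 12) more than cluster 4 (10.1 ± 10.6 CPM, n = 15).

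The members low in NF-like neurons were spread over the other clusters. Vamp8, a SNARE of endosomes and secretory granules, was at 1.69 ± 1.46 CPM in NF-like neurons and 23.3 CPM in the remaining cells, and it peaked in the SST-like clusters 5 and 7 (35.2 ± 10.9, n = 12, and 43.2 ± 12.6 CPM, n = 8). Syt5 was at 72.9 ± 39.1 against 206 CPM and Stx2 at 79.3 ± 25.3 against 191 CPM. Stx1a, a SNARE of the plasma membrane, was at 41.9 ± 18.8 CPM (n = 12) in cluster 3, at 99.7 ± 51.0 CPM (n = 15) in cluster 4 and at 169.8 ± 34.2 CPM (n = 16) in PEP1-like neurons.

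**Figure D1:**
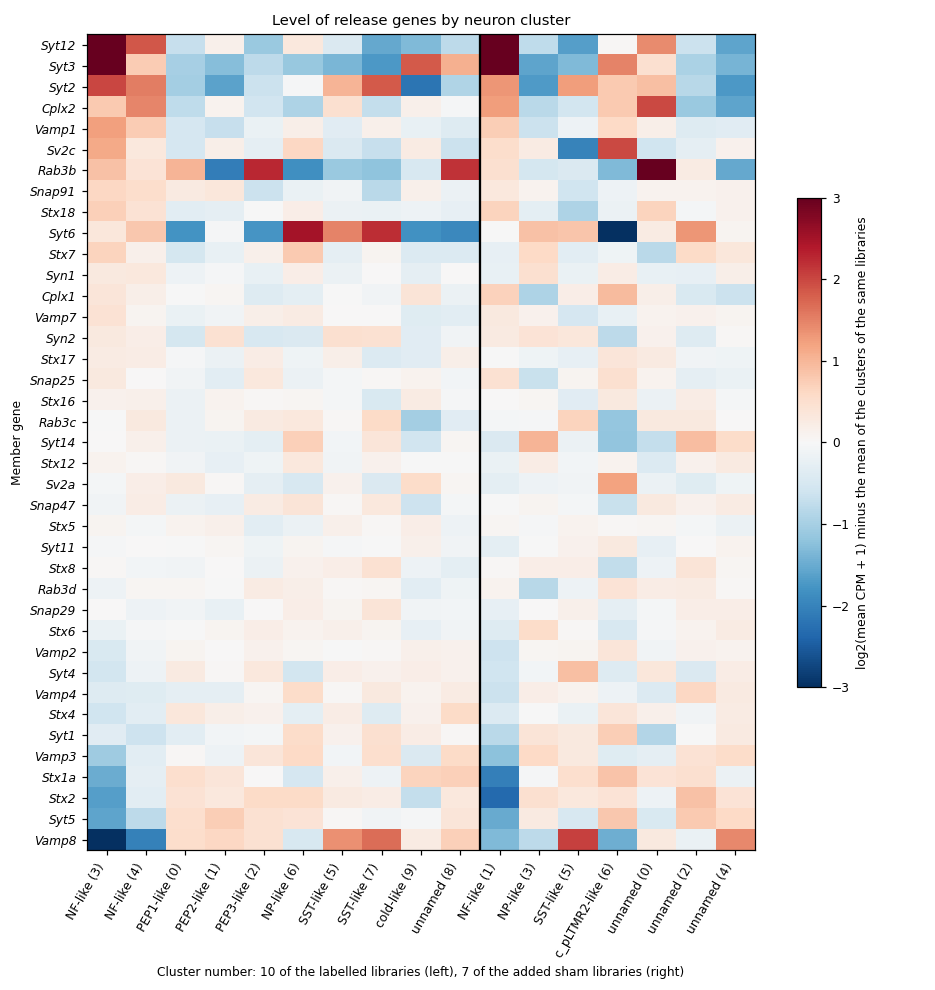
Heat map of 39 members with a mean of at least 10 CPM over all cells (rows) in the 10 labelled and 7 added sham clusters (columns, with names and cluster numbers). Colour gives the log2 of the mean CPM plus 1 over samples, minus the mean of the clusters of the same libraries, and values past 3 in either direction take the end colour. Syt12, Syt3, Syt2 and Cplx2 are red in the NF-like columns of both sets of libraries, and Vamp8, Syt5 and Stx2 are blue there.

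Within the nociceptors, single members set clusters apart. Syt6, a synaptotagmin, was at 154 ± 31.9 CPM (SD, n = 8) in NP-like neurons and 127 ± 30.6 CPM (n = 8) in SST-like cluster 7, but at 6.93 ± 9.17 CPM (n = 16) in PEP1-like and 7.09 ± 8.99 CPM (n = 11) in PEP3-like neurons. Syt1 was at 406 ± 92.7 CPM in NP-like neurons, 392.3 ± 56.0 CPM in cluster 7 and 224 ± 26.2 CPM in PEP1-like neurons. Both were above the remaining cells in 8 of 8 samples of NP-like neurons and of cluster 7. Cluster 7 also held Syt2 at 367 ± 70.1 CPM, in the range of NF-like cells, whereas PEP2-like and cold-like neurons held 32.5 ± 18.9 and 21.4 ± 9.39 CPM. Rab3b, a vesicle GTPase, was at 91.4 ± 26.3 CPM (n = 11) in PEP3-like neurons, above the remaining cells in 11 of 11 samples, and at 3.62 ± 4.45 CPM (n = 16) in PEP2-like neurons, below them in 16 of 16. Syt13 was at 36.3 ± 28.4 CPM (n = 5) in cold-like neurons and at 2.49 CPM in the other cells, cluster 8 included.

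In the added sham libraries, clustered on their own, Vamp1, Cplx1 and Syt3 were again above the remaining cells in NF-like neurons, and Stx1a and Stx2 below, each in 5 of 5 libraries. NF-like neurons had 611 ± 88.3 CPM of Vamp1 (SD, n = 5) against 377 CPM in the remaining cells, 755 ± 93.6 against 433 CPM of Cplx1 and 207 ± 32.6 against 23.6 CPM of Syt3. Stx1a stood at 14.6 ± 3.70 against 68.5 CPM and Stx2 at 30.6 ± 7.11 against 173 CPM. In all, 9 members were above and 19 below in 5 of 5 libraries, 18% and 38% of the members, beside 19.6% and 21.7% of all genes at or above 1 CPM. Across the 50 members, the log2 ratios of NF-like to remaining cells in the 2 sets had a Pearson r of 0.820 and a Spearman rho of 0.777, a description over genes that share libraries and are not independent replicates. The direction was the same in both sets for only 36 of the 50. The c_pLTMR2-like cluster 6, low-threshold mechanoreceptors with 17 cells, held Sv2a at 334 ± 50.0 CPM (n = 4) and Syt6 at 8.40 ± 3.47 CPM, where the other added cells held 135 and 137 CPM. That cluster was named for 3 of 5 c_pLTMR2 markers high. Syt10 was at 18.3 ± 5.58 CPM (n = 6) in added cluster 2, an unnamed cluster led by Rbp2, Otof and Mrgprb4.

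At 1, 3 and 7 days after SNC no release gene passed the test against labelled sham. Counts were summed per DRG sample and compared with the edgeR quasi-likelihood test, all genes tested together with Benjamini-Hochberg adjustment, and called at an adjusted p under 0.05. The call count was 0 of 50 members at each time, beside 0% of the 14239 genes tested; 2 members at each time had an unadjusted p under 0.05, and DESeq2 also called 0 members. The median log2 fold change over the members was -0.069 at 1 day, -0.034 at 3 days and -0.0079 at 7 days, beside -0.0059, -0.0049 and -0.0061 over all genes. Absolute changes over 0.5 on the log2 scale were found for 6, 7 and 5 members. The labelled sham samples themselves held 19, 11, 26 and 22 cells with at least 100 CPM of Sprr1a, of 24, 48, 47 and 96 cells. The 7 tested genes of an injury list had median log2 fold changes of -0.21, -0.23 and -0.18 at 1, 3 and 7 days. With such a sham group, these tests do not show whether release genes respond to nerve injury. Of the related genes, 0 of 29 tested release regulators, 13 vesicle membrane, 14 endocytosis, 10 dense core vesicle, 7 injury and 8 non-neuronal genes were called at any time, with 0 to 5 genes of a list at an unadjusted p under 0.05.

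The core fusion proteins overlapped between the groups. Snap25 was at 550, 778, 693 and 777 CPM in the sham samples, 669, 883, 678 and 690 CPM at 1 day, 719, 790.5 and 788 CPM at 3 days, and 585, 645, 608, 959 and 583 CPM at 7 days (TMM-normalized CPM, as in all comparisons between samples below). The groups overlapped, and the log2 fold changes were 0.061 (SE 0.155), 0.13 (SE 0.167) and -0.051 (SE 0.147). Vamp2 ranged from 273 to 394 CPM and Cplx1 from 395 to 579 CPM over all samples, with every group overlapping sham. Syt1 ranged from 165 to 316 CPM, with log2 fold changes of -0.041 (SE 0.138), 0.25 (SE 0.148) and -0.11 (SE 0.131).

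A few members moved more and still did not pass. Sv2a, the vesicle protein, was at 92.6, 47.6, 71.7 and 88.5 CPM in sham and at 114, 122.8 and 96.5 CPM at 3 days; the ranges did not overlap and the log2 fold change was 0.57 (SE 0.193, edgeR, adjusted p = 0.966). Stx1a was at 274 CPM in sham replicate 1, the sample high in glial markers, and at 86.4 to 123.2 CPM in the other sham samples, so its mean in sham, 143 ± 89.0 CPM (SD, n = 4), rested on 1 sample. Syt15 had the largest change, -3.48 at 1 day (SE 1.00, adjusted p = 0.518), at levels of 0 to 4.89 CPM. Reverse transcription fell in an earlier year for 3 of 4 sham samples and in a later year for 10 of the 16 samples. All samples at 1 and 3 days were of the later year, beside 1 sham sample, so year and time are hard to tell apart there. With the year as a term, 0 members were called and 1, 7 and 2 members had an unadjusted p under 0.05.

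**Figure D2:**
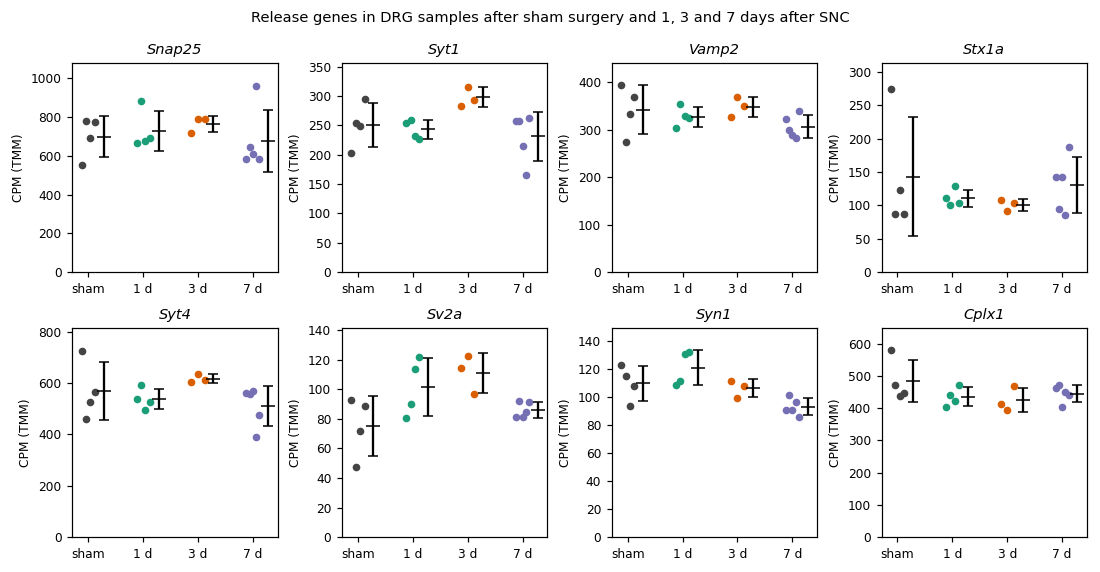
CPM (TMM-normalized, vertical axis from 0) of Snap25, Syt1, Vamp2, Stx1a, Syt4, Sv2a, Syn1 and Cplx1 in 4 sham samples and in 4, 3 and 5 samples at 1, 3 and 7 days after SNC; points are DRG samples and bars give the mean ± SD. Each SNC group overlaps sham in every panel except Sv2a at 3 days, and sham replicate 1 is the high Stx1a point.

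Sprr1a, a small proline-rich protein induced by axon injury, was used to divide the labelled neurons of every group. Neurons with at least 100 CPM of Sprr1a (413 cells) were called high and those under 10 CPM (282 cells) low; 235 lay between, and 356 cells were within a factor of 2 of a limit, so the classes are ranges and not types. Sums of the 2 classes were compared within 14 DRG samples that had at least 3 cells of each, with the sample as a block; sham replicate 1 and the 1 day replicate 3 had 1 low cell each. Of the 50 members, 24 were called (48%), beside 34.5% of the 14293 genes tested. They split into 9 higher in Sprr1a-high neurons (18% of members, beside 18.3% of all genes) and 15 lower (30%, beside 16.2%). By family, 4 of 14 syntaxins were higher and 0 lower, 2 of 14 synaptotagmins were higher and 7 lower, and 4 of 7 VAMPs were lower. The difference between families was not tested.

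Members that rose came from several families. Stx1a was at 55.2, 89.5 and 131 CPM (lowest, median and highest of 14 samples) in Sprr1a-low neurons and at 91.3, 128 and 237 CPM in Sprr1a-high neurons, higher in 13 of 14 samples (log2 fold change 0.60, SE 0.114, edgeR, adjusted p = 0.000358). Stx11, a syntaxin known best from secretion by immune cells, was at 8.63 ± 5.67 CPM (SD, n = 14) in low and 16.0 ± 5.05 CPM in high neurons (1.00, SE 0.197, adjusted p = 0.000519). The classes overlapped across samples for both genes. For Snap91, the clathrin adaptor, they did not overlap: its highest low class was at 194 CPM and its lowest high class at 199 CPM (0.73, SE 0.0853, adjusted p = 1.87e-06). Syt13 was at 0.863 ± 0.937 CPM in low and 6.96 ± 7.84 CPM in high neurons (2.59, SE 0.539), and Sv2a, Stx4, Syt4 and Cplx1 rose by 0.56, 0.30, 0.25 and 0.20.

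Snap25 and the sensors Syt1 and Syt6 fell. Syt6 was at 42.7, 83.5 and 132 CPM in Sprr1a-low neurons and 7.18, 13.6 and 65.2 CPM in Sprr1a-high neurons, lower in 13 of 14 samples (log2 fold change -2.28, SE 0.254, adjusted p = 9.84e-07). Syt1 was at 297 ± 60.7 CPM in low and 231 ± 29.4 CPM in high neurons, lower in 13 of 14 (-0.34, SE 0.0699, adjusted p = 0.000710). Snap25 was at 789 ± 142 and 664 ± 73.2 CPM, lower in 12 of 14 (-0.23, SE 0.0656, adjusted p = 0.00926), with classes that overlapped. Snap47, a SNARE of the SNAP-25 family, was lower in 14 of 14 samples by 0.40. The remaining called members that fell were Syt10, Syt9, Syt15, Rab3b, Syt2, Syt14, Vamp3, Vamp1, Vamp4, Rab3c and Vamp7, from -3.49 for Syt10 to -0.20 for Vamp7. Of these, Syt10, Syt9 and Syt15 averaged under 2 CPM in both classes. Vamp2, Syn1 and Syn2 were not called, with changes of 0.069 (SE 0.0633), 0.069 (SE 0.0743) and 0.033 (SE 0.0795).

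**Figure D3:**
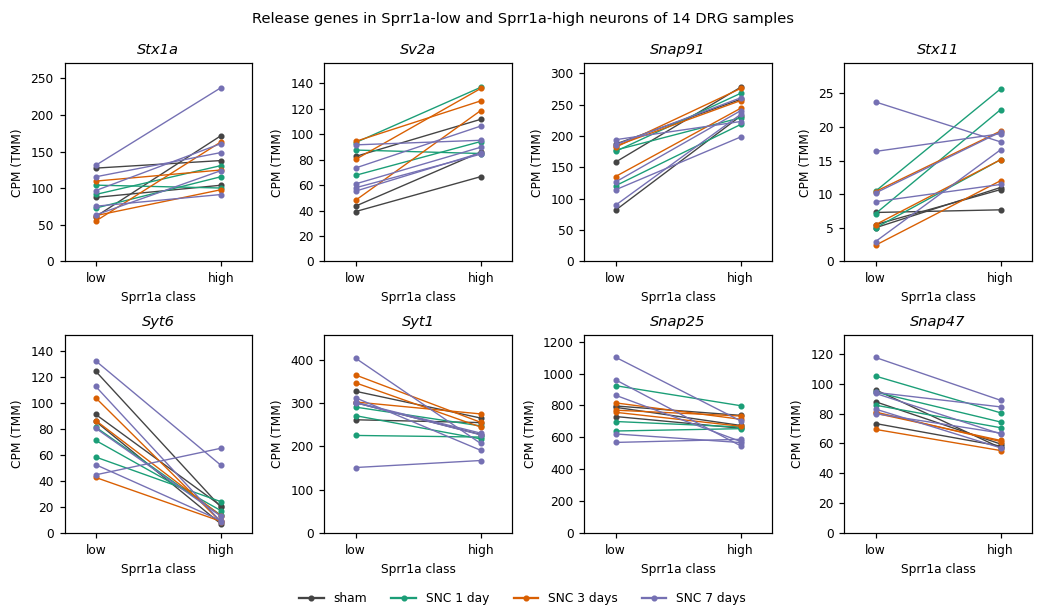
CPM (TMM-normalized, vertical axis from 0) of 8 members in Sprr1a-low (under 10 CPM) and Sprr1a-high (at least 100 CPM) neurons; each line joins the 2 classes of 1 of 14 DRG samples, coloured by group. Snap91 rises in 14 of 14 samples and Snap47 falls in 14 of 14, while Syt6 falls in 13 of 14 with 1 sample, at 7 days after SNC, going up.

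Neuron type moved with the Sprr1a class. PEP1- and PEP2-like clusters supplied 32.9% and 31.7% of high cells but 2.48% and 6.03% of low cells, whereas PEP3-like, NP-like and SST-like cluster 7 supplied 29.1%, 15.6% and 16.3% of low cells and 1.21%, 0.726% and 0.242% of high cells. With the cluster as a further term, 84 sums of 529 cells from these samples entered the fit, each a sample, cluster and class, with the sample as a block. Several sums came from 1 sample, so these p-values count them as separate observations and may be too small. In that fit 8 members were called (16%), beside 9.74% of 13723 genes, and 7 of them were among the 24. These included Syt6 (-2.12, SE 0.374, adjusted p = 2.62e-05), Syt1 (-0.55, SE 0.0774, adjusted p = 1.87e-07), Snap25 (-0.32, SE 0.101), Snap91 (0.39, SE 0.0953), Stx1a (0.55, SE 0.170) and Stx11 (1.23, SE 0.336). The eighth, Stx5 of the Golgi, was at an adjusted p of 0.0498. Of the called synaptotagmins Syt1 and Syt6 kept the call, and none of the called VAMPs did. Sv2a went from 0.56 to -0.021 (SE 0.195) and Rab3b from -0.86 to 0.72 (adjusted p = 0.400), neither called with that term.

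Within NF-like neurons alone, in 6 samples with at least 3 cells of each class, 3 of 44 members tested were called, beside 4.97% of all genes. Stx1a was at 17.2 to 37.9 CPM in low and 48.1 to 166 CPM in high NF-like neurons, with no overlap and a rise in 6 of 6 samples (log2 fold change 1.31, SE 0.30, edgeR, adjusted p = 0.0238). Syt6 fell in 6 of 6 samples, from 86.2 ± 55.5 to 16.4 ± 10.7 CPM (SD, n = 6; -2.17, SE 0.489, adjusted p = 0.0222). Stx1a and Syt6 were thus called over all labelled neurons, with the cluster as a term and within pooled NF-like neurons. The NF-like fit was chosen after seeing the data. It pooled clusters 3 and 4 without a cluster term, and whether their mix differed between the classes was not tested. Both ends of the Stx1a range, 17.2 and 166 CPM, came from the 3 day replicate 3, with 4 low and 3 high cells. There Syt2 was at 588 and 186 CPM and Syt12 at 33.3 and 1.44 CPM in low and high cells.

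**Figure D4:**
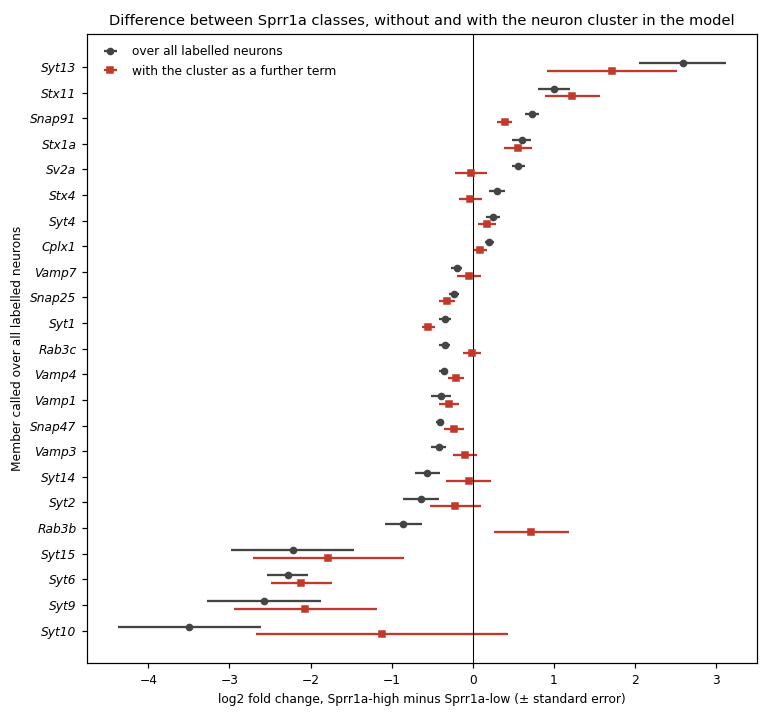
Log2 fold change between Sprr1a-high and Sprr1a-low neurons (horizontal axis, bars ± standard error) for 23 of the 24 called members, over all labelled neurons (circles) and with the cluster as a further term (squares). Syt6, Syt1, Snap25, Snap91, Stx1a and Stx11 stay away from 0 in both, while Sv2a and Stx4 move to about 0 and Rab3b changes sign.

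The Sprr1a difference was tested for a change with surgery. Between SNC samples and the sham samples with both classes, the difference differed for 0 of 50 members and 0% of 14293 genes (edgeR interaction, adjusted p under 0.05). Over the members 0 had an unadjusted p under 0.05, against 577 over all genes, and DESeq2 called 0. Within the 5 samples of the earlier year of reverse transcription 9 of 49 members were called, beside 10.6% of genes, and within the 9 of the later year 21 of 50, beside 29.1%. Summed markers of non-neuronal cells overlapped between the classes (98.6 to 731 CPM in high, 68.0 to 491 CPM in low neurons), although of 9 tested the myelin gene Mbp was higher in Sprr1a-high neurons (0.66) and the leukocyte gene Ptprc, under 1 CPM on average, lower (-2.37). Without the cluster high in glial genes, 25 members were called, 9 higher and 16 lower, beside 34.5% of genes.

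Other genes of release and injury were read in the same fit. Of 29 tested release regulators, 9 were lower, among them the priming factor Unc13c (26.2 ± 10.1 to 8.19 ± 3.89 CPM, -1.73), Rab27b (-1.58), Rab27a (-1.56) and the Rab3 effector Rph3a (-1.14), and 5 were higher, among them Sytl4 (2.43), Rab3gap2 (1.08), which acts on Rab3, and the active zone genes Erc2 (0.62) and Bsn (0.53). Of 10 dense core vesicle genes, Vgf, Pam and Cpe rose by 0.59, 0.45 and 0.26, and Scg2, Pcsk1 and Chga fell by 1.30, 0.66 and 0.35. Of 13 vesicle membrane genes 1 rose (Slc17a6, the vesicular glutamate transporter, 0.41) and 3 fell, and of 14 vesicle endocytosis genes 2 rose and 1 fell. The injury list, which holds Sprr1a itself, rose in 7 of 7 tested genes.

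Many of these calls did not hold with the cluster as a further term. Of the 14 called release regulators 5 kept the call, namely Rab27b (-1.72), Rph3a (-1.40), Pclo (-0.52), Rab3gap2 (0.70) and Erc2 (0.52). Unc13c (-0.96, adjusted p = 0.0986), Rab27a (-0.59, adjusted p = 0.0851), Sytl4 (0.36, adjusted p = 0.881) and Bsn (0.12, adjusted p = 0.762) did not. Of the 6 called dense core vesicle genes Scg2 (-0.82) and Pcsk1 (-0.52) kept it, and Vgf, Pam, Cpe and Chga, at adjusted p from 0.143 to 0.831, did not. Slc17a6 went to -0.099 (adjusted p = 0.727), and Synpr, a synaptic vesicle membrane protein, turned from -0.34 to 0.79 (adjusted p = 0.00504). The endocytosis genes Bin1 (0.45) and Dnm3 (-0.59) kept the call and Picalm did not, and of the injury list 5 of 7 did, with Ecel1 and Gap43 losing it.

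The share of members called between added and labelled sham was near that of all genes. Of the 50 members 22 were called (44%), beside 40.6% of 15791 genes, 13 higher in added sham (26%, beside 24.2%) and 9 lower (18%, beside 16.5%). Of the 13, Syt10 met the limit of 1 CPM only through the added cells (5.24 CPM there, 0.331 CPM in labelled cells). The choice of members thus favoured a higher Syt10 in added sham, and its call is no support. Syt15 and Vamp5 also averaged under 1 CPM in labelled cells and were not called. The median log2 fold change was -0.0026 over the members and 0.15 over all genes. Series of libraries and group cannot be told apart here, and injury genes differed as well: 7 of 7 tested were lower in added sham, and 1 of 503 added cells had a Sprr1a UMI. Of the related lists, 12 of 29 release regulators were higher and 5 lower, 4 of 14 endocytosis genes were higher and 4 lower, 1 of 13 vesicle membrane genes was higher and 2 lower, 0 of 10 dense core vesicle genes were called (edgeR; 1 had an unadjusted p under 0.05), and 1 of 9 non-neuronal markers was higher and 1 lower. A comparison of Sprr1a classes within the added libraries was therefore not possible, since every cell was under 10 CPM.

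Among the members higher in added sham, Vamp1 was at 71.3, 217, 109 and 192 CPM in the labelled sham samples and at 266, 226, 469, 629, 366, 333 and 361 CPM in the added libraries (lowest 226, median 361, highest 629), with no overlap (log2 fold change 1.35, SE 0.327, edgeR, adjusted p = 0.00568). Syn1, a vesicle tether, was at 94.8 to 122 CPM in labelled and 136 to 315 CPM in added sham (0.94, SE 0.218, adjusted p = 0.00434). Syt6 was at 13.4 to 92.6 CPM in labelled and 96.6 to 177 CPM in added sham (1.44, SE 0.388, adjusted p = 0.0105). None of these 3 overlapped between the sets. Syt10 had 9 UMIs in 4 of 215 labelled sham cells, all in replicate 4, and 1036 UMIs in 166 of 503 added cells, so its change of 5.21 rested on a group with 3 of 4 samples at 0. The other members that were higher were Stx16, Stx3, Vamp4, Sv2a, Syt1, Snap91, Syt11, Syn2 and Snap29, from 0.80 to 0.32.

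Among those lower in added sham, Vamp8 was at 26.3, 14.7, 20.3 and 15.2 CPM in labelled sham and 1.41, 4.26 and 6.68 CPM (lowest, median, highest of 7) in added sham (-2.14, SE 0.349, adjusted p = 0.000507). Stx1a was at 88.8 to 272 CPM and 38.2 to 87.2 CPM (-1.29, SE 0.303, adjusted p = 0.00492), and Stx4 at 44.0 to 111 CPM and 16.5 to 42.1 CPM (-1.14, SE 0.268). Syt13, Stx11, Rab3b, Syn3, Syt4 and Rab3d were also lower, from -1.94 to -0.38. Stx1a was not called against labelled sham cells with under 10 CPM of Sprr1a (-0.73, adjusted p = 0.0549), in SST-like cells (-0.53, adjusted p = 0.0828) or with added libraries of 0 day only (-1.05, adjusted p = 0.108). Over all cells, Snap25, Vamp2, Cplx1 and Syt2 overlapped between the sets and were not called.

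**Figure D5:**
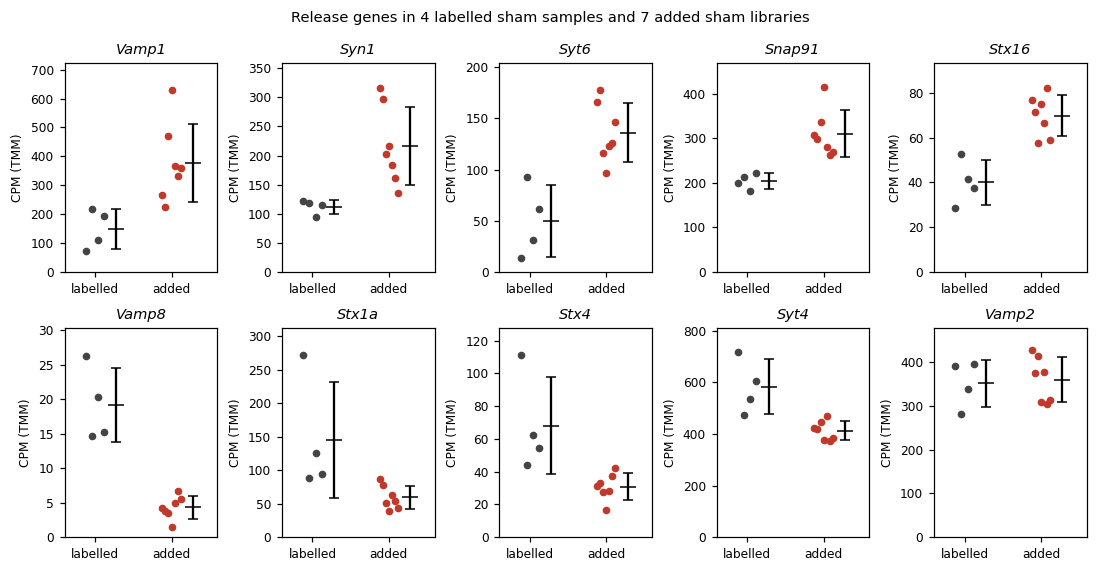
CPM (TMM-normalized, vertical axis from 0) of 10 members in 4 labelled sham samples and 7 added sham libraries; points are samples and bars give the mean ± SD. Vamp1, Syn1, Syt6, Snap91 and Stx16 are higher and Vamp8, Stx1a, Stx4 and Syt4 lower in added sham with no overlap, and Vamp2 overlaps.

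The added and labelled sets differ in their cells, with NF-like shares of 0 to 51.2% in the added libraries and 4.17 to 26.0% in labelled sham. These shares and the fit within NF-like cells set labelled clusters 3 and 4 against added cluster 1. That added cluster had the same 8 NF markers high as cluster 3. The cluster 4 markers S100a16, Kcnv1 and Nmb were high in added cluster 0 instead, and Stx1a was lower in cluster 3 than in cluster 4. The sets may thus differ in subtype, which was not tested. Within NF-like cells (5 added libraries, 3 labelled samples) 21 of 45 members were called, beside 33.1% of genes, and 11 of these were among the 22. Vamp1 was at 520 to 741 CPM against 169 to 332 CPM there (1.23, SE 0.213, adjusted p = 0.00242) and Stx1a at 11.3 to 19.5 against 48.6 to 77.7 CPM (-2.06, SE 0.249, adjusted p = 0.000674). Snap25 (0.46, SE 0.138, adjusted p = 0.0267) and Cplx1 (0.52, SE 0.147, adjusted p = 0.0206) were higher and Syt2 (-0.44, SE 0.125, adjusted p = 0.0214) lower in added NF-like cells, with no overlap. Vamp2 was not called there (adjusted p = 0.970). Against the 93 labelled sham cells with under 10 CPM of Sprr1a (3 samples), 11 members were called, beside 30.4% of genes, and 10 of them were among the 22, Vamp1 (0.94), Syn1 (0.89) and Vamp8 (-2.24) included. Syt6 was at 0.33 (SE 0.197, adjusted p = 0.219) in that fit. For SST-like cells (6 added libraries, 3 labelled samples), labelled clusters 5 and 7 were set against added cluster 5, which like cluster 7 had Sst high. There 10 of 38 members were called, beside 31.8% of genes. Without sham replicate 1, the sample high in glial markers, 14 of 50 members were called, beside 35.6% of genes, and without sham replicate 3, 13 of 50, beside 30.9%, in both a smaller share than among all genes.

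Promoters of Vamp1, Syn1 and Syt6 are shown as members that were higher in added sham, Syt6 also for its fall in Sprr1a-high neurons. RefSeq sequences (GRCr8) matched 39 of the 50 members. In the 250 bases before the start, searched on both strands, the cAMP response element TGACGTCA occurred in 2 of the 39, Vamp1 and Syn1, and in 1.59% of all 33469 promoters; the AP-1 letters TGANTCA in 0 and 6.34%; and the GC box GGGCGG in 30 of 39 and 30.5%. The motifs were picked after values were known and a match is a description of the letters only. The lines give the plus strand 5′ to 3′, chr4:159698644-159698893 for Vamp1, chrX:3725495-3725744 for Syn1 and chr2:193781226-193781475 for Syt6, with capitals on the cAMP response element (71 and 190 bases before the start) and, for Syt6, on the GC box (55 bases before it).
Vamp1: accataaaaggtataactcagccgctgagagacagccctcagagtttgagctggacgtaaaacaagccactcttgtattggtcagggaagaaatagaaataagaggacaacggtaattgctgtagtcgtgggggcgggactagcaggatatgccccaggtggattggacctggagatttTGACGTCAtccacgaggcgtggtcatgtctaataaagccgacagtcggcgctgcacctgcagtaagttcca
Syn1: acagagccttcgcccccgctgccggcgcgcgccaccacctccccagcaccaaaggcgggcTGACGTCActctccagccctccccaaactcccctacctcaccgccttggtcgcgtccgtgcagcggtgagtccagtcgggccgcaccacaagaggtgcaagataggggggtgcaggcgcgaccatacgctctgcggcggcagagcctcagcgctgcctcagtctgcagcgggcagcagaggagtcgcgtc
Syt6: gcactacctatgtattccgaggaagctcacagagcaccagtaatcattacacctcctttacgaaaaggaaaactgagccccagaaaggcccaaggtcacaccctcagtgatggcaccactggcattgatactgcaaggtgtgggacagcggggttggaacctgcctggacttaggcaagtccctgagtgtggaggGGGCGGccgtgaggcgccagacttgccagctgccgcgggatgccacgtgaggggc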

How the data were processed

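Single DRG neurons were sequenced by a modified Smart-seq2 protocol with cell barcodes and UMIs. The authors aligned reads to the rat transcriptome (Rnor_6.0) with STAR and built gene tables with featureCounts, Samtools and UMI_tools; the deposited values are raw UMI counts per gene and cell, not normalized. Kept were 1433 of 1464 cells, by limits of 500 detected genes, 1000 UMIs and a share of mitochondrial UMIs below 5%. No cell equalled another, and no doublet caller was run because neurons were picked one by one. A deposited annotation (release 102) paired Ensembl identifiers with symbols.

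Clustering used Seurat 5.3.0 (2000 variable genes, 40 components, resolution 0.5), with no batch correction. A cluster marker was high at over 1.5 times the mean of the other cells and detected in over 25% of cells. Counts were summed per DRG sample (replicates 1 and 2 at 7 days are 1 sample) and tested with edgeR 4.0.16 (TMM, filterByExpr, quasi-likelihood, Benjamini-Hochberg over all genes), in R 4.3.3; DESeq2 1.42.0, thinning to 20000 UMIs, other limits, leaving samples out and fits by year were alternatives. Tables used Python 3.11.15. The fits were tested on simulated data. In levels by type CPM are not TMM-normalized.

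Text names members called at either end (up to 6 each way), core members fixed by name, and list genes called at the ends. Results of 1 member are counted but not reported here. Members, lists and tests were chosen with earlier results of these data known.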

Additional observations from a re-analysis of the deposited data

Results flagged for a closer look

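In groups of 4 to 7 samples, single samples of 7 of 108 named member and group combinations lay far from the others. A sample was taken as far when the gap from the highest or lowest value to its neighbour, divided by the whole range of the group, passed Dixon's 95% critical value, and chance passes it in about 1 in 20 groups. Stx11 was at 25.0 CPM in sham replicate 1 and at 6.16 to 8.79 CPM in the other sham samples. Rab3a was at 4.53 CPM in sham replicate 2 against 3.36 to 3.48 CPM. Syt10 was at 0.329 CPM in sham replicate 4 and 0 in the others. Snap25 was at 883 CPM in the 1 day replicate 2, against 669 to 690 CPM, and at 959 CPM in the 7 day replicate 5, against 583 to 645 CPM. Vamp8 was at 42.8 CPM in the 7 day replicate 6, against 9.31 to 16.1 CPM, and Sv2c at 57.6 CPM in added sham replicate 6, against 21.5 to 36.0 CPM. The 7 day replicates 5 and 6 had lopsided mixes of crushed and uncrushed neurons, in opposite directions. Whether this bears on their values was not tested.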

How the results depend on the processing

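After SNC, 0 members were called at each time under every alternative run: DESeq2, its size factors, no filter on genes or cells, samples of the same library number merged, year or date of reverse transcription, thinning and each sample left out. With thinning, 40 members were tested.

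In added sham, 22 members were called beside 40.6% of genes. The count fell to 14 without sham replicate 1 (beside 35.6% of genes) and 13 without sham replicate 3 (beside 30.9%), and the range over the samples left out was 13 to 22. With added libraries of 0 day only, 10 of 50 were called, beside 3410 of 14106 genes. Against labelled sham cells under 10 CPM of Sprr1a 11 were called (beside 30.4%), and in SST-like cells 10 of 38 (beside 31.8%). Stx11 turned to 0.21 in NF-like cells and Syt4 to 0.33 in SST-like cells. The settings by cell type or Sprr1a level here, the NF-like fit of Sprr1a classes and the fits by year were chosen after seeing the data.

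Between Sprr1a classes, 24 members called (beside 34.5% of genes) became 8 with the cluster as a term (beside 9.74%). In NF-like clusters 3 of 44 were called (beside 4.97%) and in samples of the earlier year 9 of 49 (beside 10.6%). Leaving a sample out gave 22 to 26, beside 4391 of 14034 to 5007 of 14161 genes. Without the replicate block 18 of 45 tested members were called, beside 3516 of 11793 genes. Rab3b turned to 0.72 with the cluster as a term and 0.62 in NF-like clusters, and Sv2a to -0.021 with the cluster as a term. The cause of these shifts was not tested.

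By type, 16 members were above or below in all samples, 5 after thinning to 20000 UMIs and 16 under other resolutions. No paired analysis by replicate number was made after SNC, since those groups and sham share none in the labels. In the fit blocked on reverse transcription date, 0 members were called at 1, 3 and 7 days, and 8, 9 and 4 had an unadjusted p under 0.05 (edgeR). Members under about 5 CPM rest on few UMIs.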
